A study of Mus musculus with 2 samples.

Results

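A set of 35 genes that act on the DNA lesions left by platinum drugs was followed through single-cell transcriptomes of mouse ovarian tumours. The genes were taken as a named list, and all 35 of them are present among the 33696 genes of the deposited matrices. They comprise 11 genes of nucleotide excision repair, 9 of the Fanconi pathway, 8 of homologous recombination, 2 of mismatch repair, 3 of translesion synthesis and 2 damage kinases. The tumours came from the ID8 model, in which a line grown from mouse ovarian surface epithelium is placed in mice. The primary group was treatment naive, and the chemoresistant group had been given cisplatin. Dose, schedule, age and the number of mice per pool are not given in the sources used here. Each group was 1 library of solid tumour cells pooled from digested tissue, so no difference between the groups has a replicate check, no test between them was possible, and the drug cannot be told apart from anything else that differed between the pools.

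Cisplatin links bases within a strand of DNA and, less often, across the strands. Links within a strand are cut out by nucleotide excision repair, which recognises the distortion, opens the helix and removes a short stretch. Links across the strands are unhooked in S phase by the Fanconi pathway, filled in by translesion polymerases and finished by homologous recombination. Mismatch repair proteins bind platinum lesions without removing them, and the kinases Atm and Atr signal their presence to the cell cycle.

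The primary library held 14390 barcodes and 141334623 UMIs (unique molecular identifiers, each a captured transcript), and the chemoresistant library 16390 barcodes and 158118781 UMIs. A total of 52 barcode sequences occurred in both libraries. After the limits on genes and mitochondrial UMIs, 12824 and 14908 barcodes remained. Tumour cells, named by keratins, Wt1, Upk3b and other markers, numbered 970 with a median of 32401.5 UMIs in the primary library and 3574 with a median of 21141.5 in the chemoresistant library. Of the 10 markers of that list, 9 lay above 20 CPM (UMIs of a gene scaled to a fixed total per class and library, 1000000) in both libraries, while Wfdc2 was near 0, and host mesothelial cells, which share these markers, were not separated from tumour cells. The pan-leukocyte gene Ptprc stood at 26.2 CPM in primary and 11.5 CPM in chemoresistant tumour cells, against 823 and 436 CPM in all other named cells. The summed level of 10 enterocyte markers was 824 CPM in the tumour cells of the primary library and 6.30 CPM in those of the chemoresistant library, against 145 to 288 CPM in the immune, fibroblast and endothelial classes of the primary library. Of the primary tumour cells, 829 had at least 1 UMI of these markers and 399 had at least 3 of them, against 403 and 1 chemoresistant tumour cells. Counts and the values that moved most without those cells follow the account of the tumour cells.

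The first comparison asked how the levels of the repair genes in tumour cells differed between the libraries. Most were similar: 30 of the 34 measured genes lay within 1.5-fold of each other, 3 were lower in the chemoresistant library (Ercc6, Rev3l and Fanca) and 1 was higher (Xrcc3). A gene counts as measured with at least 100 UMIs over both libraries, which left out Fancb with 20 and 58 UMIs. Among all 14638 measured genes, 19.8% were lower and 9.39% were higher by the same limit. The median log2 ratio of chemoresistant over primary was -0.19 for the 34 genes and -0.17 for all measured genes. The 35 genes together made up 707 CPM (95% counting interval 699 to 716) of the primary and 656 CPM (651 to 661) of the chemoresistant tumour transcripts. The method counts the ends of transcripts, but the treatment of intronic reads was not given. Whether levels can be compared between genes of unlike length was not tested. All intervals cover counting error only.

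**Figure D1:**
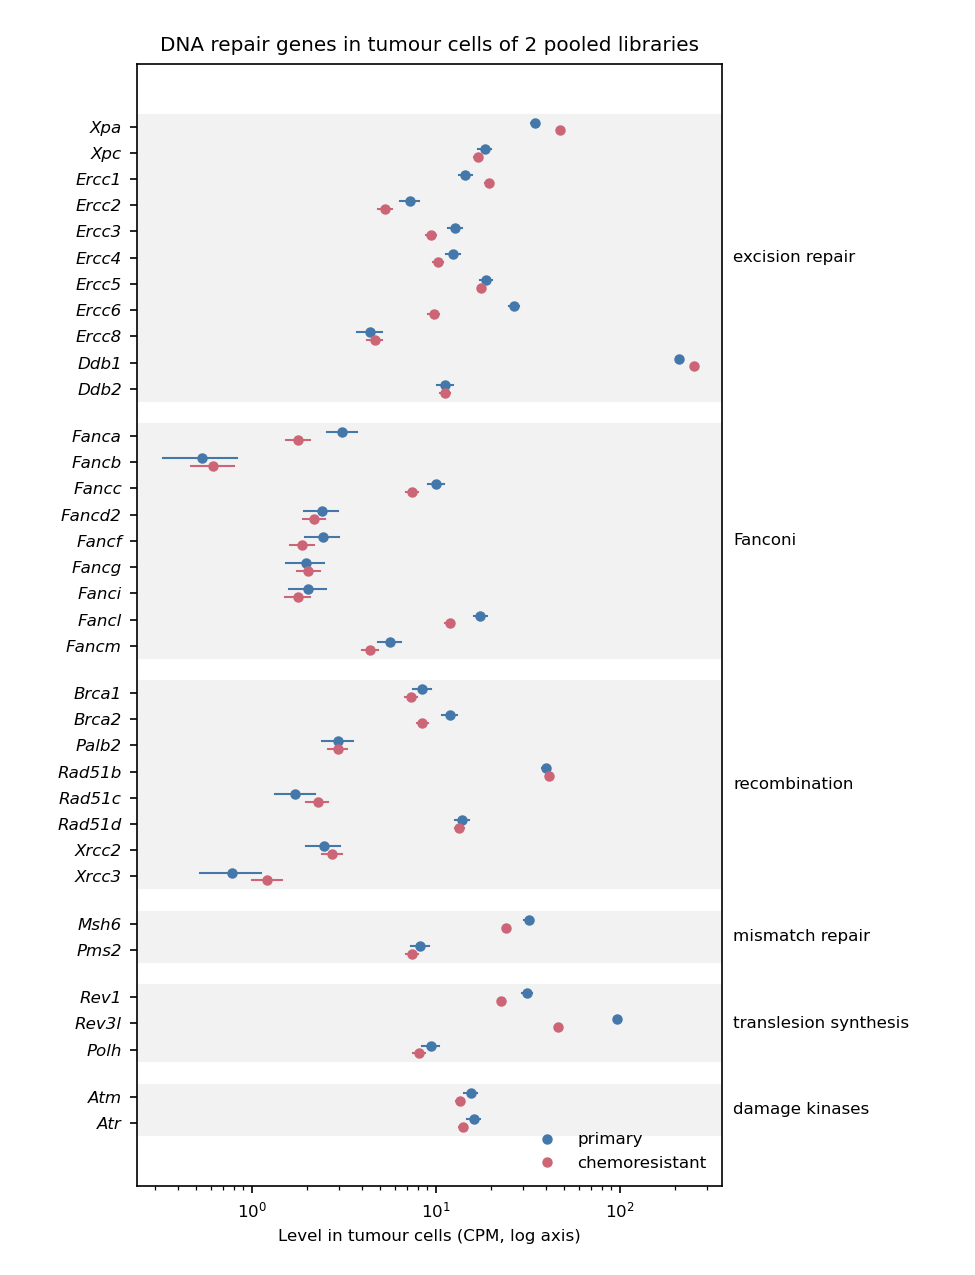
Level of each repair gene in tumour cells (CPM, log axis) in the primary (blue) and chemoresistant (red) library, with points for the pooled counts of 1 library each and bars for exact Poisson 95% intervals. Ercc6 and Rev3l show the widest gaps between the libraries, and Ddb1 lies to the right of all other genes in both.

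In nucleotide excision repair, 1 of 11 measured genes was past the limit. Ercc6 encodes the CSB protein, which couples repair to a stalled RNA polymerase. Its level was 26.7 CPM (25.1 to 28.4) in primary and 9.75 CPM (9.13 to 10.4) in chemoresistant tumour cells, a log2 ratio of -1.45. Ercc8, its partner CSA in the same branch, stood at 4.41 and 4.66 CPM, intervals that overlapped. Xpc, which recognises lesions in the genome at large, was at 18.5 CPM in primary and 17.0 CPM in chemoresistant cells. Ddb2, which hands lesions to Xpc, was at 11.3 CPM in both. Ddb1, the adaptor that holds Ddb2 in a ubiquitin ligase and serves many other substrates, was at 209 CPM (205 to 214) in primary and 253 CPM (250.2 to 257) in chemoresistant cells. It alone supplied 29.6% of all UMIs of the 35 genes in primary and 38.6% in chemoresistant tumour cells.

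Lesion verification and incision genes went either way within the limit. Xpa, which verifies the lesion, was at 34.7 CPM in primary and 47.4 CPM in chemoresistant cells, a log2 ratio of 0.45. Ercc1, a subunit of the nuclease that cuts on the 5' side and also acts on crosslinks, was at 14.5 and 19.5 CPM, a log2 ratio of 0.42. Their counting intervals did not overlap between the libraries. Ercc4, which encodes the catalytic partner of Ercc1, was at 12.5 and 10.3 CPM. Ercc5, the nuclease that cuts on the 3' side, was at 18.8 and 17.8 CPM. The subunits of that nuclease pair thus differed in direction, by less than 1.5-fold each. Ercc2, a helicase of the TFIIH complex, was at 7.25 and 5.30 CPM, a log2 ratio of -0.45. Ercc3, the other TFIIH helicase, was at 12.7 and 9.43 CPM, a log2 ratio of -0.43.

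Of the 8 measured Fanconi genes, 1 was lower past the limit and 7 lay within it, with a median log2 ratio of -0.37. Fanca, a core complex subunit, was at 3.11 CPM (2.57 to 3.74) in primary and 1.79 CPM (1.53 to 2.09) in chemoresistant tumour cells, from 115 and 168 UMIs. Fancl, the ubiquitin ligase of the core complex, lay just inside the limit at 17.5 and 11.9 CPM, a log2 ratio of -0.56. Fancc, another core subunit, was at 10.1 and 7.45 CPM. Fancl and Fancc were the most abundant of these 8 genes in both libraries, and for each the intervals did not overlap. Fancm, which brings the core complex to DNA, was at 5.63 and 4.40 CPM. Fancf was at 2.44 and 1.88 CPM, and Fancg at 1.98 and 2.04 CPM. Both are core subunits of low level. Fancd2 and Fanci form the pair that the core complex marks with ubiquitin. Fancd2 was at 2.41 and 2.20 CPM and Fanci at 2.03 and 1.78 CPM, with intervals that overlapped for each.

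Of the 8 recombination genes, 1 was higher past the limit and 7 lay within it, with a median log2 ratio of 0.02. Brca1, which directs the choice of recombination, was at 8.47 CPM (7.56 to 9.46) in primary and 7.33 CPM (6.79 to 7.90) in chemoresistant cells. Brca2, which acts downstream of Brca1 in recombination, was at 11.96 and 8.47 CPM, a log2 ratio of -0.50. Palb2, the bridge between both, was at 2.95 and 2.93 CPM. Of these 3 genes, the intervals parted for Brca2 and overlapped for Brca1 and Palb2. Rad51b was at 39.7 and 41.3 CPM, the highest level of these 8 recombination genes in both libraries. The other genes that act beside it in strand exchange stood lower. Rad51d was at 13.9 and 13.5 CPM, Rad51c at 1.73 and 2.28 CPM, and Xrcc2 at 2.46 and 2.73 CPM. Xrcc3 was the gene past the limit, at 0.785 CPM (29 UMIs) in primary and 1.22 CPM (114 UMIs) in chemoresistant cells. Xrcc3 passed the filter mainly through the chemoresistant library, where it was high, so its place in the count is no support. Its ratio of 1.55 had a counting interval of 1.023 to 2.42, so that its side of the limit was not resolved at this depth.

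Both mismatch repair genes lay within the limit. Msh6, which recognises mispairs, was at 32.2 and 24.2 CPM, and Pms2, which nicks the strand to be repaired, at 8.23 and 7.46 CPM. Translesion polymerases differed more. Rev3l, the catalytic subunit of polymerase zeta, was at 96.3 CPM (93.2 to 99.5) in primary and 46.3 CPM (44.9 to 47.7) in chemoresistant cells, a log2 ratio of -1.06. Rev1, the scaffold for that polymerase, was at 31.5 and 22.8 CPM, a log2 ratio of -0.46. Polh, which copies past platinum links within a strand, was at 9.39 and 8.15 CPM. All 3 had lower values in the chemoresistant library, 1 of them past the limit. Atm was at 15.5 and 13.6 CPM and Atr at 16.1 and 14.1 CPM, a log2 ratio of -0.19 for each.

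Ercc6 and Rev3l were lower past the limit under each of the 17 alternatives that gave a value, with log2 ratios from -2.09 to -1.10 and from -1.21 to -0.86. Fanca and Xrcc3 were not: leaving out every cell with any UMI of the division genes Mki67, Top2a and Cdk1 left too few UMIs for either. Fanca was at a log2 ratio of -0.55, within the limit, without the deepest 8% of cells, and at 0.044 without the primary and chemoresistant tumour cells that held an enterocyte UMI. That step left 141 primary cells and gave 11 lower and 4 higher genes, and leaving out only cells with at least 3 enterocyte markers left 571 and gave 6 lower and 3 higher. Both of these steps also removed the deeper primary cells, since the median UMI count of those left was 8937 and 20957. The first step left 1811159 primary against 77873521 chemoresistant UMIs, so low genes passed the filter there mainly through the chemoresistant library. Fancd2, among its 4 higher genes, had no primary UMI left and so no finite ratio. Brca1 turned from -0.21 to 1.81 and 0.81 under the first and second step and Fanci from -0.19 to 0.66 and 0.87, both past the limit. Rad51c went from 0.40 to 2.07 and 0.51. Under the first step the ratios of Brca1, Fanci and Rad51c rested on few primary UMIs. Ercc2, Fancm and Rev1 were lower past the limit under both steps. The part of enterocyte transcripts in the main values was not tested beyond this.

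The next comparison asked whether the genes followed cell division. Dividing tumour cells, defined by at least 2 UMIs over Mki67, Top2a and Cdk1, had higher levels of 11 of the 34 measured genes in both libraries and a lower level of 1, Xpc. All measured genes gave 5.51% higher and 5.45% lower by the same rule. The count of higher genes was 0 with each cell thinned to 2000 UMIs. Only 16 genes were then measured, and none of the 11 was among them. The filter thus set that 0, which says nothing on the 11. The count was 7 without tumour cells holding any enterocyte UMI and 11 without those holding at least 3 enterocyte markers. The 11 were 5 Fanconi genes (Fanca, Fancd2, Fancf, Fancg and Fanci), 5 recombination genes (Brca1, Brca2, Palb2, Rad51c and Xrcc2) and Polh. In the other tumour cells Fancd2 had 14 and 28 UMIs and Fanci 8 and 26. Both thus passed the filter only through dividing cells, where they were high, so their place in the count is no support. No excision repair gene was among the 11. With at least 100 UMIs required in each library, a filter that was used first and replaced after its count was seen, 5 of 27 measured genes were higher (Fanca, Brca1, Brca2, Palb2 and Polh).

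The largest ratio was that of Brca1 in the primary and of Fancd2 in the chemoresistant library. Brca1 was at 25.7 CPM in dividing and 1.19 CPM in other tumour cells of the primary library, a ratio of 21.6 (14.8 to 32.3). In the chemoresistant library it was at 31.0 and 1.39 CPM, a ratio of 22.3 (18.1 to 27.8). Dividing cells thus held 90.1% and 84.9% of its tumour UMIs, while they held 29.7% and 20.1% of all tumour UMIs. Fanci was at 6.11 and 0.308 CPM in the primary and 7.49 and 0.347 CPM in the chemoresistant library. Fancd2, its partner, was at 6.84 and 0.539 CPM and at 9.46 and 0.374 CPM, the latter a ratio of 25.3 (16.9 to 39.2). Fanca was at 6.11 and 1.85 CPM and at 5.63 and 0.828 CPM. Brca2 was at 21.8 and 7.81 CPM and at 17.1 and 6.30 CPM. Each of these genes was higher in dividing cells of both libraries with counting intervals of the ratio above 1.5. Fancb, not measured by the rule, had 15 and 44 UMIs in dividing cells against 5 and 14 in the others.

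The remaining members of the 11 differed less. Rad51c had ratios of 2.52 and 5.28, Palb2 of 2.33 and 1.94, and Polh of 1.98 and 1.78. Fancg had ratios of 1.75 and 2.69, Fancf of 1.58 and 1.86, and Xrcc2 of 1.55 and 2.16. Of these 6 genes only Polh had lower bounds above 1.5 in both libraries. The others were not resolved from the limit in at least 1 library, and the lower bound of Xrcc2 in the primary library, 0.990, was below 1. Xpc was at 12.5 CPM in dividing and 21.0 CPM in other cells of the primary library, and at 10.9 and 18.6 CPM in the chemoresistant library. Ddb1, Ercc6, Rev3l, Atm and Atr were within the limit in both libraries. Of 16 S phase genes listed for comparison, 15 were higher in dividing cells of both libraries. Dividing cells were also deeper, with medians of 56836 against 28194.5 UMIs in the primary and 38044.5 against 19559 UMIs in the chemoresistant library, and their UMI limit favours deep cells.

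**Figure D2:**
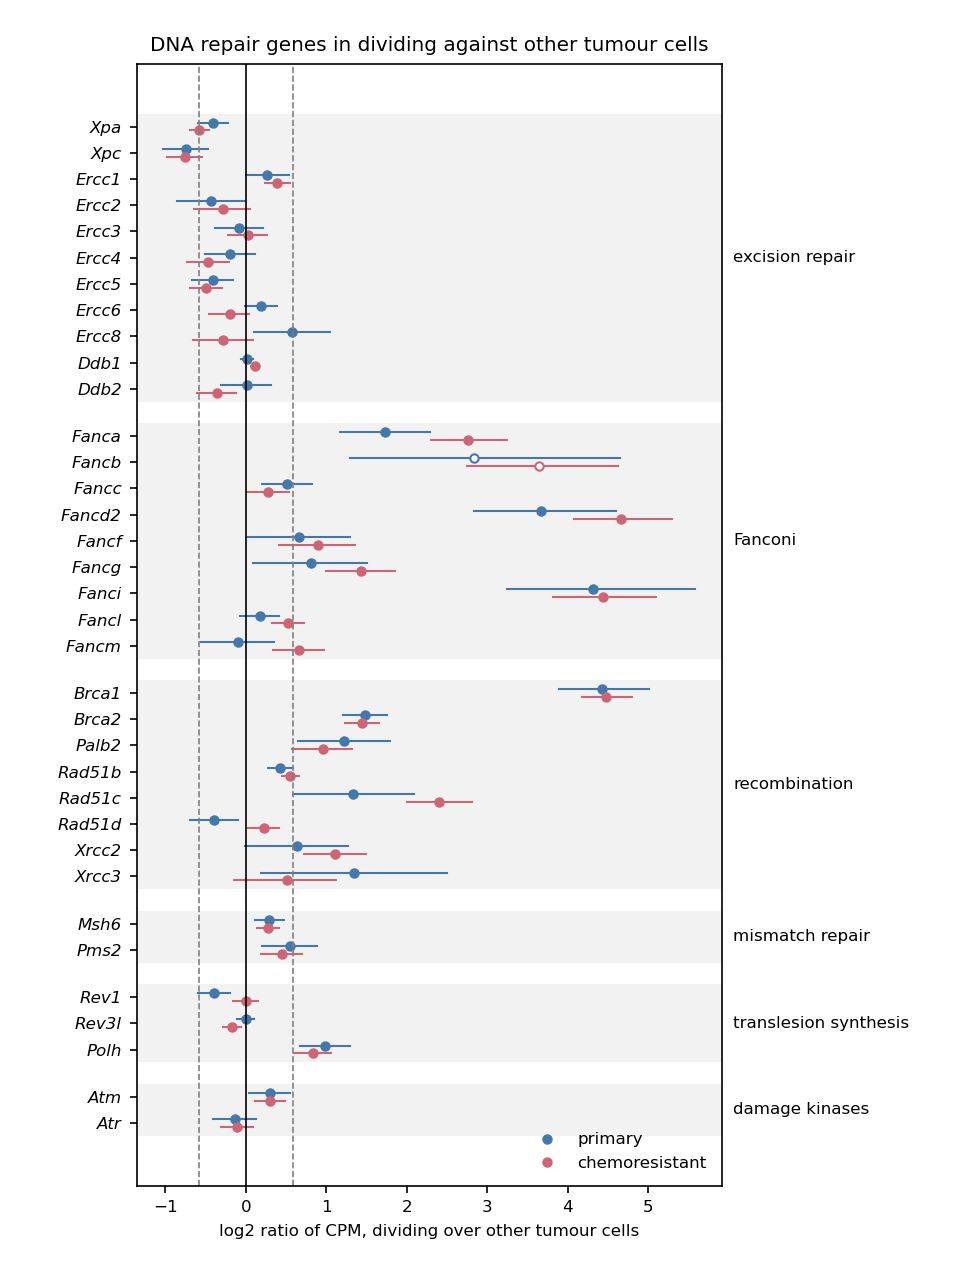
log2 ratio of CPM in dividing over other tumour cells for each repair gene in the primary (blue) and chemoresistant (red) library, with exact 95% counting intervals, dashed lines at 1.5-fold and open circles for the gene that was not measured (Fancb). Brca1, Fanci and Fancd2 lie far to the right in both libraries, and no excision repair gene is past the right-hand line in both.

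Promoter sequence is shown for the 2 members of this group with an E2F word, the letters to which the E2F factors of S phase genes bind, and for Brca1 and Fanci, the 2 members in the table with the largest ratios. Sequences are from RefSeq on GRCm38.p6 on the gene's strand. Capitals mark the E2F word in Fancg and Brca2 and the word CCAAT, described below, in Brca1, while Fanci has no marked word.

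Fancg, chr4:43010314-43010393, minus strand: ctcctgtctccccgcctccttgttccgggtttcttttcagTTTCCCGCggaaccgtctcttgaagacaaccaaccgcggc
Brca2, chr5:150522413-150522492, plus strand: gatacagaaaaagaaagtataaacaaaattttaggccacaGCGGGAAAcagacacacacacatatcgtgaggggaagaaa
Brca1, chr11:101551956-101552055, minus strand: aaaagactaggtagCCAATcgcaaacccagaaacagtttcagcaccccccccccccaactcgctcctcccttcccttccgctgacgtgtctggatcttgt
Fanci, chr7:79392238-79392337, plus strand: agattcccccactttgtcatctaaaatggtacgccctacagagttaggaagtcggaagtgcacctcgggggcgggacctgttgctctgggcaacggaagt

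The 250 bases before each start were searched on both strands for 3 sets of words, and all 3 are given. The E2F words were TTTCCCGC, TTTCGCGC, TTTGCCGC and TTTGGCGC. They occurred in 2 of the 28 members in the table, Fancg and Brca2, against 1.86% of 32851 promoters. Both belong to the 9 members of the table that were higher in dividing cells, and none of the other 19 members had a match. CCAAT, the word of the factor NF-Y, occurred in 3 of those 9 and 13 of the other 19 members, against 33.8% of promoters. The cell cycle words TTTGAA and TTCGAA occurred in 0 of the 9 and 2 of the 19, against 17.1%. Most of the genes higher in dividing cells, Brca1 and Fanci among them, had no E2F word in this window. A match describes letters and not a bound site. The members not in the table are Xpc, Ercc3, Ddb2, Fancd2, Rad51d, Xrcc2 and Rev3l.

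The share of dividing tumour cells was 18.8% (95% Clopper-Pearson interval 16.4 to 21.4%) in the primary and 12.4% (11.3 to 13.5%) in the chemoresistant library. With each cell thinned to 10000 UMIs, which left out 187 and 833 shallower cells, the shares were 9.07% (7.15 to 11.3%) and 8.43% (7.41 to 9.53%). The summed level of Mki67, Top2a and Cdk1 was 184 CPM in primary and 94.4 CPM in chemoresistant tumour cells. Ercc6 was lower in the chemoresistant library within dividing cells (29.3 against 8.71 CPM) and within the other tumour cells (25.6 against 10.0 CPM). Rev3l likewise was at 96.2 and 42.1 CPM in dividing and 96.3 and 47.3 CPM in other tumour cells. For these 2 genes the difference between libraries was thus present in both kinds of tumour cell. Fanca was at 6.11 and 5.63 CPM in dividing cells and at 1.85 and 0.828 CPM in the others, the latter on 48 and 62 UMIs. The Fanca ratio of chemoresistant over primary was 0.922 (0.672 to 1.27) in dividing and 0.448 (0.302 to 0.667) in other tumour cells. Dividing cells, where Fanca was higher, also held a smaller share of the tumour UMIs in the chemoresistant library, as given above. The part of that share in the Fanca values was not tested.

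A further comparison set tumour cells against all other named cells within each library. In both libraries 2 genes were higher in tumour cells, Ddb1 and Msh6, and 6 were lower: Fanca, Fancb, Fancc, Fancg, Fancl and Rad51b. All 35 genes were measured here, and 27.3% of all measured genes were higher and 27.6% lower. Fancb had 20 and 58 UMIs in tumour cells of the primary and chemoresistant library, against 198 and 74 in the other cells. It thus passed the filter only through the other cells, where it was high, so its place in the count is no support. Ddb1 was at 209 CPM in tumour and 67.6 CPM in other cells of the primary library, and at 253 and 86.2 CPM in the chemoresistant library. By class, tumour cells and fibroblasts had the highest Ddb1 levels. Fibroblasts had 204 CPM (191 to 218) and 232 CPM (216 to 248), and no other class was above 86.1 CPM. The tumour and fibroblast intervals overlapped in the primary library and parted in the chemoresistant library. Msh6 was at 32.2 CPM in tumour and 13.0 CPM in other cells of the primary library, and at 24.2 and 9.39 CPM in the chemoresistant library.

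Of the 9 Fanconi members, 5 were lower in tumour cells in both libraries, Fancb among them only through the filter as given above. Of the 14 other Fanconi genes listed, 0 were lower and 2 were higher. Fancc was at 10.1 against 21.9 CPM in the primary and 7.45 against 14.3 CPM in the chemoresistant library. Fancl was at 17.5 against 28.6 CPM and at 11.9 against 19.0 CPM. Fanca was at 3.11 against 7.28 CPM and at 1.79 against 4.37 CPM. In all 3 the counting intervals of the ratio lay below 1 in both libraries. Fancg had ratios of 0.554 and 0.601, and Fancb of 0.201 and 0.333. Rad51b was at 39.7 against 74.6 CPM and at 41.3 against 72.2 CPM. Among the 7 classes, Ddb1 and Msh6 had their highest level in tumour cells in both libraries.

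The same comparison of libraries was made in the 6 host classes with at least 100 cells in each. In mononuclear phagocytes, which are monocytes and macrophages, all 35 genes were measured, and 14 were lower in the chemoresistant library and 0 higher, with 17.8% of all measured genes lower and 4.38% higher. The largest differences were in Fanci (3.08 against 1.33 CPM), Brca1 (6.79 against 3.32 CPM), Fancd2 (3.53 against 1.81 CPM) and Brca2 (7.92 against 4.13 CPM). Among the lower genes, Fanci, Fancd2, Brca1, Fancm, Rad51c and Xrcc3 had 36, 49, 90, 96, 33 and 34 UMIs in the chemoresistant library. These passed the filter mainly through the primary library, where they were high, so their place in the count is no support. The median log2 ratio was -0.50 for the 35 genes and -0.28 for all measured genes. The summed level of Mki67, Top2a and Cdk1 was 139 CPM in primary and 83.2 CPM in chemoresistant phagocytes. Without cells that held any UMI of these 3 genes, the count of lower genes was 7. After centring on the median gene it was 4.

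In B lineage cells, 31 genes were measured, 8 were lower in the chemoresistant library and 0 higher, with 11.4% of all measured genes lower and 9.02% higher. The largest differences were in Brca1 (17.3 against 6.64 CPM), Fanca (10.4 against 4.23 CPM), Brca2 (12.7 against 6.64 CPM) and Rad51b (66.0 against 35.8 CPM). No excision repair gene was past the limit. The class held 17711025 UMIs in the primary and 4969754 in the chemoresistant library, so genes passed the filter mainly through the primary library and the count supports nothing. The summed level of the 10 plasma cell markers in the class was 6026 and 1482 CPM, and its part in these values was not tested. The division markers stood at 241 and 58.6 CPM, and dividing cells were 7.39% and 0.958% of the class. Without cells that held a UMI of those markers, 1 gene was lower.

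The other 4 classes gave few measured genes, most of their UMIs likewise coming from the primary library, so genes passed the filter mainly through it and the counts support nothing. In dendritic cells 17 genes were measured and 7 were lower, led by Ercc6 (14.3 against 7.38 CPM), with 21.5% of all measured genes lower and 3.92% higher. In T and NK cells 17 were measured and 6 were lower, led by Rad51b (43.9 against 20.1 CPM, the latter 11 UMIs), with 19.3% lower and 8.97% higher. In fibroblasts 12 were measured and 6 were lower, led by Rad51b (85.2 against 33.3 CPM), with 29.5% lower and 11.8% higher. In neutrophils 4 were measured and 0 were lower, and Ddb1 was higher (31.4 against 86.1 CPM), with 15.8% lower and 7.41% higher. No gene was higher past the limit in the other 3 of these classes. The summed level of the 10 tumour markers within neutrophils was 100.4 CPM in the primary and 463 CPM in the chemoresistant library, and in the other 5 host classes 62.7 to 423 CPM and 152 to 472 CPM. Its part in the Ddb1 values was not tested. Ddb1 had a higher value in the chemoresistant library in all 7 classes, past the limit only in neutrophils.

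**Figure D3:**
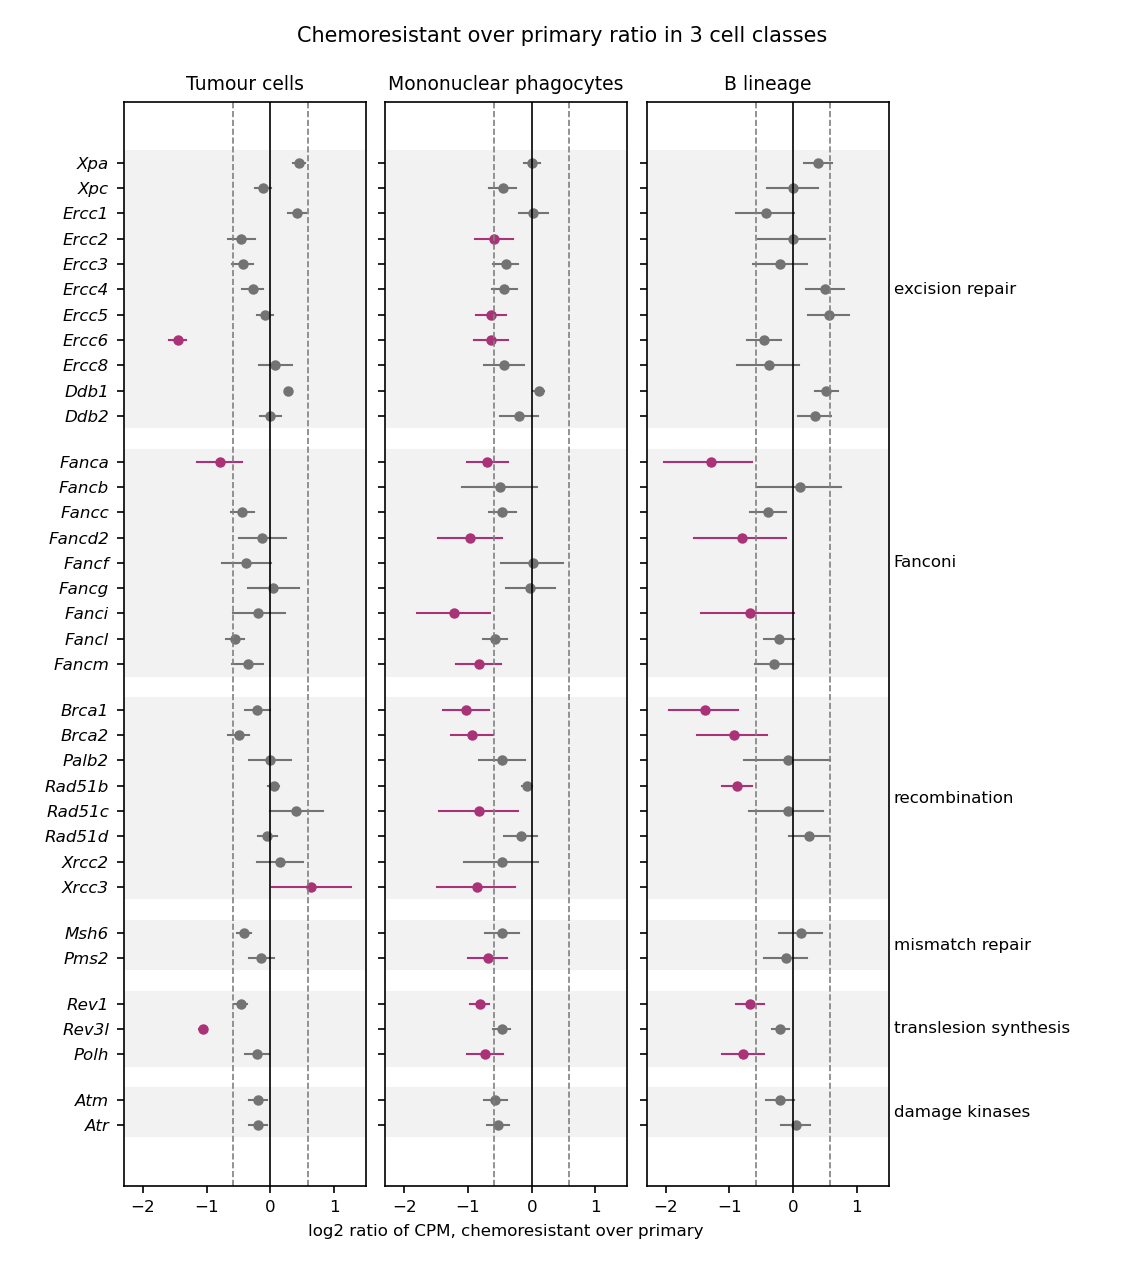
log2 ratio of CPM, chemoresistant over primary, for each measured repair gene in tumour cells, mononuclear phagocytes and B lineage cells, with exact 95% counting intervals, dashed lines at 1.5-fold and genes past the limit in purple. Ercc6 and Rev3l lie furthest left in tumour cells, and Brca1 is past the limit in both host classes and within it in tumour cells.

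Ercc6 was lower past the limit in tumour cells, in phagocytes (10.7 against 6.90 CPM) and in dendritic cells (14.3 against 7.38 CPM). The dendritic value carries the limit of the filter given above. Of the 5 classes where Ercc6 was measured, 5 had a lower value in the chemoresistant library, 3 of them past the limit. Rev3l was within it in phagocytes (40.2 against 29.0 CPM) and lower past it in fibroblasts (75.9 against 47.2 CPM). Of the 7 classes, 6 had a lower Rev3l value in the chemoresistant library, 2 of them past the limit, tumour cells and fibroblasts. Whether the classes differ from each other in these ratios could not be tested with 1 library a group.

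Gene span, the length of the gene on the chromosome with its introns, went along with the ratios in tumour cells. Over all measured genes with a span in RefSeq (93.9% of them), which were split by span into 4 groups of equal size, the median log2 ratio was 0.07 in the group of shortest genes, -0.12 and -0.23 in the next groups and -0.34 in the longest. The order of the groups was the same in each of the other 6 classes. Across the 34 measured repair genes Spearman's rho between span and log2 ratio was -0.47, and across 13745 genes it was -0.27, both over genes of the same 2 libraries, which are not independent replicates. Ercc6 spans 67.7 kb, Rev3l 144 kb and Fanca 52.4 kb. Ercc6 and Rev3l lay well below the median of their group. Rad51b, which spans 551 kb, was at a log2 ratio of 0.06. The nuclear transcript Malat1 was at 12487 CPM in primary and 12482 CPM in chemoresistant tumour cells, and Neat1 at 553 and 774 CPM, while mitochondrial transcripts were 5.60% and 4.14% of the UMIs.

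**Figure D4:**
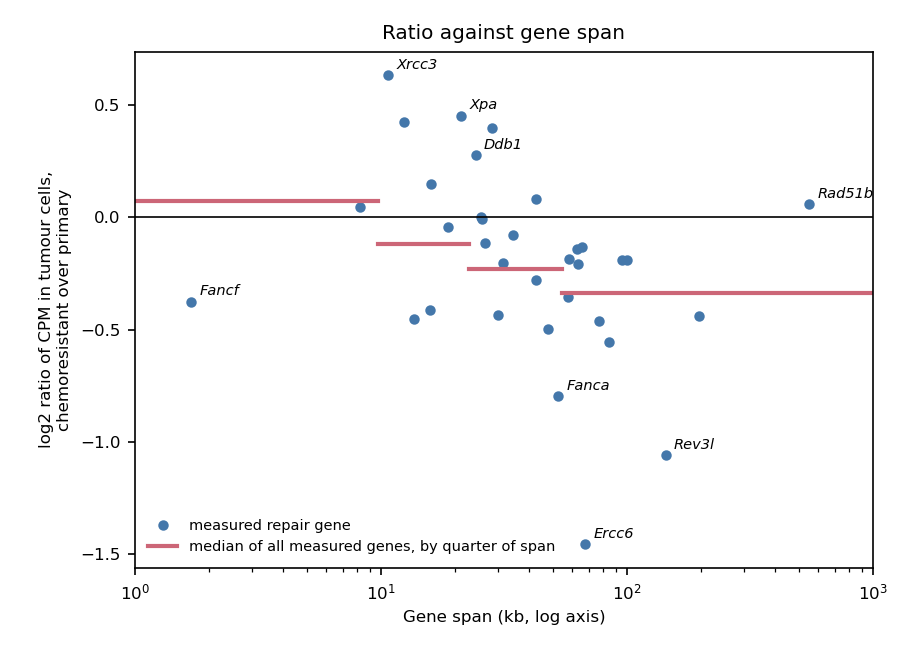
log2 ratio of CPM in tumour cells, chemoresistant over primary, against gene span (kb, log axis) for the 34 measured repair genes (blue), with the median of all measured genes in each of the 4 span groups (red lines). The red lines step down from 0.07 to -0.34, and Ercc6 and Rev3l lie below them.

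Tumour barcodes with under 1% mitochondrial UMIs numbered 87 (8.97%) in the primary and 418 (11.7%) in the chemoresistant library and were shallow, with medians of 4960 and 4372 UMIs. Against the other tumour cells, 5 of the 34 genes were lower in both libraries, with 19.1% of all measured genes lower and 2.59% higher. They were Fancc, Fancm, Brca1, Rad51b and Rev3l, the first 3 on 3, 1 and 2 UMIs in the primary low-mitochondrial barcodes. Rad51b had 13 and 68 UMIs and Rev3l 22 and 75 in these barcodes of the primary and chemoresistant library. The 5 genes thus passed the filter through the other tumour cells, where they were high, so the count is no support. Rev3l was at 35.5 against 97.3 CPM in the primary and 21.3 against 47.2 CPM in the chemoresistant library, and Rad51b at 21.0 against 40.02 CPM and 19.3 against 42.2 CPM. No repair gene was higher in the low-mitochondrial barcodes, under the same filter. Among tumour cells with at least 1% mitochondrial UMIs, Ercc6, Rev3l and Fanca were again lower past the limit in the chemoresistant library. Their log2 ratios were -1.44, -1.04 and -0.77. Nearly all UMIs of these 3 genes came from such cells. For Rev3l they were 3536 of 3558 primary and 4261 of 4336 chemoresistant UMIs. Leaving out the low-mitochondrial barcodes could thus hardly change these calls, so the result is no check on them.

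Of 78 other genes of these pathways, all measured in tumour cells, 13 were lower in the chemoresistant library and 1 was higher, with a median log2 ratio of -0.22, beside 19.8% and 9.39% of all measured genes. In the Fanconi list Rfwd3, a ubiquitin ligase of crosslink repair, was at 52.9 CPM in primary and 25.0 CPM in chemoresistant cells, and Faap24, the partner of Fancm, at 3.82 and 5.87 CPM. In the recombination list Rad52 was at 14.1 and 7.19 CPM. In the excision repair list 1 of 22 was lower, Xab2, which binds Xpa, at 16.1 and 10.2 CPM. The translesion list had 3 of 10 lower, the damage signalling list 3 of 14 and the mismatch repair list 1 of 6. The 16 S phase genes had 1 lower and a median of -0.24.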

How the data were processed

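Per the file headers, the authors made the deposited UMI counts with Cell Ranger 8.0.1. The submitters' processing notes name mm10 as the genome. The gene annotation and the treatment of intronic reads were not given in the sources used here. A barcode was kept with at least 500 UMIs, 250 genes and at most 20% mitochondrial UMIs. Counts were summed per class and library and scaled to CPM with no pseudocount. Intervals are exact Poisson for levels and exact conditional binomial for ratios (SciPy 1.17.1). Genes with at least 100 UMIs over both libraries were measured, and 1.5-fold was the limit for higher or lower. The ratio step was tested on simulated data.

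A class was named from lists of 10 markers by the list with the highest share of UMIs, relative to cells with at least 4 markers of that list. It needed at least 3 markers, 25% of that share and a top share at least 3 times the runner-up. Other cells were set aside: 1068 primary and 778 chemoresistant with markers of 2 classes, 1485 and 1827 with too few. No doublet caller was run. The last of 3 class rules tried was used, chosen after seeing class sizes and marker levels and an earlier tumour cell count from these data, with no regard to the repair genes. The first rule gave 270 and 2568 tumour cells and the second 481 and 2638.

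The genes and lists were chosen with earlier results of these data known. All members are named. Per class, up to 4 genes past the limit are named, largest difference first, and of other pathway genes at most the 2 highest and 2 lowest ratios per list. The comparisons by mitochondrial share, within dividing cells and of promoter words were added after the data were seen. The filter within libraries was changed from 100 UMIs in each library to 100 over both, as the design has it, after its counts were seen, and both counts are given.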

Additional observations from a re-analysis of the deposited data

How the results depend on the processing

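No paired analysis was possible because each group is 1 library. Leaving out a replicate was not possible for the same reason. Of 140 recomputed summaries, 104 stayed near the main value and 36 did not. Near means within 1.5 times for a count. For the median ratio it means between the median lower and median upper bound of the single-gene intervals. The median ratio in tumour cells stayed within that band under all 17 alternatives. The band has the width of a typical single-gene interval and is not an interval of the median itself. The 2 genes higher in tumour than other cells stayed within 1.5 times (2 or 3 genes). The count of 3 genes lower in chemoresistant tumour cells became 8 with the mean over cells, 5 without division-marked cells (those with any UMI of Mki67, Top2a or Cdk1; without only the cells with 2 or more it was 4, Fanca among them), 5 and 6 under the first and second class rule, and 11 and 6 without tumour cells holding any or 3 enterocyte markers. The count of 1 higher became 2 after thinning to 2000 UMIs, 3 after centring, 0 with 5 CPM added, 0 with a mean of 10 CPM, 0 with a 2-fold limit, 0 without the deepest 8% of cells, 0 without division-marked cells, 0 under the second class rule, and 4 and 3 without the enterocyte-marked cells. Fanca changed sign in 1 setting, to 0.044 without cells holding any enterocyte marker, a step that left few primary UMIs, as given above. The count of 11 genes higher in dividing cells became 0 after thinning. Only 16 genes were then measured in tumour cells, none of the 11 among them, so the filter set that 0. The count became 5 with 5 CPM added, 3 with a mean of 10 CPM and 6 at 2-fold. It was 5 with 100 UMIs in each library and 7 without cells holding any enterocyte marker. The count of 14 lower in phagocytes became 5 after thinning, 4 after centring, 1 with 5 CPM added, 2 with a mean of 10 CPM, 2 at 2-fold and 7 without division-marked cells. The count of 8 in B lineage cells became 2 after thinning, 5 with the mean over cells, 4 with a mean of 10 CPM, 2 at 2-fold and 1 without division-marked cells. The 6 genes lower in tumour than other cells became 2 with 5 CPM added, 3 with a mean of 10 CPM and 2 at 2-fold. A pseudocount, a higher filter and a higher limit call fewer genes by construction. Apart from these and the 0 after thinning, the cause of the moves was not tested. The class rules, the enterocyte steps, the filter in each library and all alternatives for phagocytes, B lineage cells and genes lower in tumour than other cells were chosen after seeing the data. Depth limits the Fanconi and recombination genes most, since 10 of the 17 have under 5 CPM in tumour cells of both libraries.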
